A study of Mus musculus with 2 samples.

Results

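The 10 genes described here are 7 peptide hormones of the pancreatic islet and 3 genes of the granules that store them, read in the immune cells of the same islets. They were taken by symbol from the 32285 genes of the mRNA library, and all 10 were found and held UMIs (unique molecular identifiers, each standing for 1 counted RNA molecule). Islets of 6 to 8 wild-type (WT) male C57BL/6J mice had been pooled into 1 suspension and sorted as live cells that bound no DAPI, lacked Epcam and carried CD45, the leukocyte surface protein. The cells were also stained with barcoded antibodies to CD9 and CD206, read as a second library on the same 2237 barcodes; the series' design text names CD9 alone. There was no second sample, treatment or genotype and the age of the mice was not given in the sources used here, so no difference below has a replicate check, no test was run, and every interval is a 95% interval that covers counting error only.

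An islet holds beta cells, which make insulin and amylin, alpha cells, which make glucagon, delta cells, which make somatostatin, and cells that make pancreatic polypeptide. Each endocrine cell usually transcribes 1 of these hormones at a very high level and packs it into dense granules with chromogranins and processing enzymes. Resident macrophages sit against the endocrine cells and are known to take up their granules, whereas lymphocytes are not known to transcribe islet hormones. In droplet sequencing, RNA freed from broken cells is also counted in every barcode, so the level in lymphocytes is set beside that in the other classes throughout.

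The 7 hormones were Ins1, Ins2, Iapp, Gcg, Sst, Ppy and Pyy, and the granule genes were Chga, Chgb and Pcsk2. By RefSeq on GRCm38.p6 (the submitters' processing notes name mm10), Ins1 lies on chromosome 19 at 52264297 to 52265015 and Ins2 on chromosome 7 at 142678656 to 142679726. These are the 2 mouse insulin genes, and since they are near-identical in their coding sequence, reads could have been split between them with some error. Iapp, which encodes amylin, lies on chromosome 6 at 142298425 to 142303820. Gcg, the glucagon gene, lies on chromosome 2 at 62474530 to 62483653, and Sst, for somatostatin, on chromosome 16 at 23889573 to 23891342. Ppy (pancreatic polypeptide, PP) and Pyy (peptide YY) are neighbours on chromosome 11, at 102099931 to 102101319 and 102106676 to 102107832, with 5356 bases between them. Chga and Chgb encode chromogranins and lie on chromosome 12 at 102554941 to 102565027 and on chromosome 2 at 132781642 to 132795079. Pcsk2, for the proprotein convertase that cuts proglucagon and proinsulin, lies on chromosome 2 at 143546133 to 143816284.

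Of 2175 cells kept, 1792 had at least 2000 CPM (UMIs scaled to the RNA UMIs of the cell or class, 10000 CPM being 1% of them) of C1qa, C1qb and C1qc together, the complement genes that mark tissue macrophages, and are called macrophages here. Lymphocytes (142 cells, of which 86 T-like, 28 NK-like and 28 B-like) and conventional dendritic cells (52) had C1q under 1000 CPM and were named from at least 3 detected markers of a fixed list, so the names mean lymphocyte-like and dendritic-cell-like. A further 23 cells had C1q under 1000 CPM and at least 5% of their RNA UMIs in the 7 hormones. These classes are ranges of continuous values: 30 macrophages had C1q of 2000 to 2500 CPM, and 1 C1q-low cell had 4 to 5% hormone UMIs against 2 with 5 to 6%. Ptprc, which encodes CD45, stood at 527 CPM in macrophages, 1403 CPM in lymphocytes and 744 CPM in dendritic cells. In the 23 hormone-rich cells it stood at 6.87 CPM and was seen in 5 cells, while Epcam, an epithelial surface gene, stood at 222 CPM and was seen in 20. Epcam stood at 3.02 CPM in macrophages, 9.68 CPM in lymphocytes and 57.1 CPM in dendritic cells, where 19 of 52 cells held it. The RNA of the hormone-rich cells goes against the CD45+ Epcam- label of the sort, but the sort was by surface protein, which was not read here for either gene. Another 20 C1q-low cells held endocrine markers but under 5% hormone UMIs, and they are called endocrine-marked; 99 C1q-low cells and 47 between the C1q thresholds fell in none of these classes. Median depth differed, at 20200 UMIs in macrophages, 9573 in lymphocytes, 24095 in dendritic cells, 79857 in hormone-rich cells and 15128.5 in endocrine-marked cells. Of the endocrine-marked cells, 1 held 14 Ptprc UMIs and 19 held 0.

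Hormone RNA was found in every class, and no kept cell of any class had 0 hormone UMIs. The 7 hormones made up 0.296% of the summed RNA UMIs of macrophages (0.294 to 0.297%), 0.102% of those of lymphocytes (0.0964 to 0.107%) and 0.0833% of those of dendritic cells (0.0786 to 0.0882%). T-like, NK-like and B-like lymphocytes stood at 0.101%, 0.0962% and 0.109%, and their intervals overlapped. Between single cells the picture differed: the median share was 0.104% in macrophages and 0.100% in lymphocytes, while the highest macrophage reached 15.2% and the highest lymphocyte 0.889%, on 17 hormone UMIs among 1913. The sum in macrophages was thus carried by a minority: 108 of 1792 (6.03%) held 1% or more and 15 (0.837%) held 5% or more, against 0 of 142 lymphocytes and 0 of 52 dendritic cells at 1%. Cells outside these classes also reached 1%, namely 12 of the 99 other C1q-low cells (12.1%) and 7 of the 47 between the C1q thresholds (14.9%), groups with median depths of 3628 and 6254 UMIs. Without the 10% of macrophages highest in hormone share, the macrophage sum fell to 0.122%, and the ratio to lymphocytes moved from 2.91 (2.77 to 3.07) to 1.21 (1.15 to 1.27). That cut used the value compared and left lymphocytes whole, so a fall was fixed in advance and only its size is described.

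**Figure D1:**
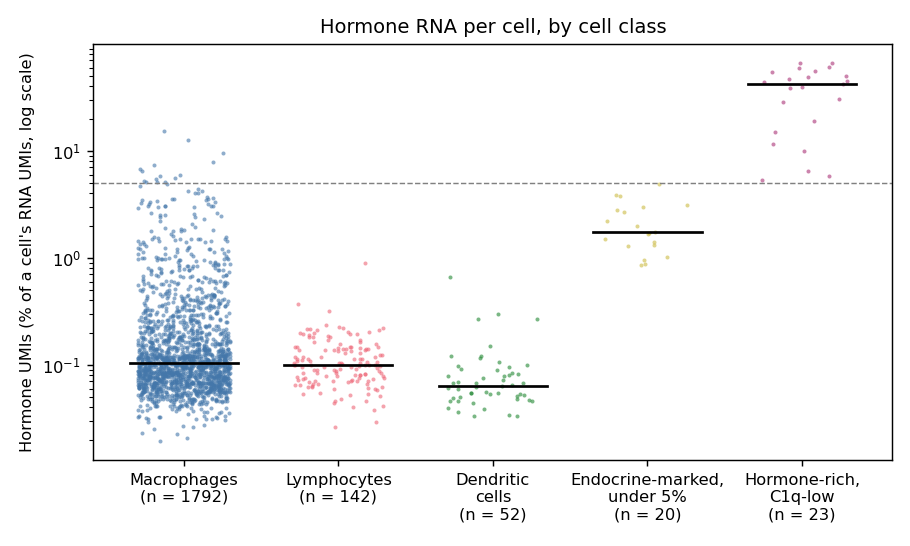
Each point is 1 cell; the vertical axis gives the UMIs of the 7 hormone genes as a percent of the cell's RNA UMIs on a log scale, the bars are medians, and the dashed line is the 5% threshold that separates the last 2 classes. Macrophages and lymphocytes have nearly the same median (0.104 and 0.100%), and of macrophages, lymphocytes and dendritic cells only macrophages extend past 1%.

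The near-equal medians came from cells of different depth. Hormone UMIs per cell went up less than total UMIs: over 10 equal ranges of macrophage depth the median number of hormone UMIs went from 11 in the shallowest (median 3055 RNA UMIs) to 29 in the deepest (34061), so the median share was highest, at 0.410%, in the shallowest range and lay between 0.0774% and 0.117% in the others. That shallowest range also held 34 of the 108 macrophages with 1% or more. Compared at like depth, macrophages were above lymphocytes. Among cells of 5000 to 10000 UMIs, the median share was 0.211% in 90 macrophages and 0.117% in 71 lymphocytes, with a median of 15 and 10 hormone UMIs per cell. Among cells of 10000 to 15000 UMIs it was 0.107% in 205 macrophages and 0.0753% in 41 lymphocytes. Among cells of 15000 to 20000 UMIs it was 0.0993% in 462 macrophages, 0.0819% in 9 dendritic cells and 0.0680% in 10 lymphocytes. At 20000 to 30000 UMIs it was 0.0978% in 718 macrophages, 0.0839% in 6 lymphocytes and 0.0677% in 26 dendritic cells. The summed share in that range had lymphocytes lower, at 0.0810%, and dendritic cells at 0.0945%, a sum that includes 1 cell with 151 Gcg UMIs. No order of lymphocytes and dendritic cells at like depth follows from so few cells.

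**Figure D2:**
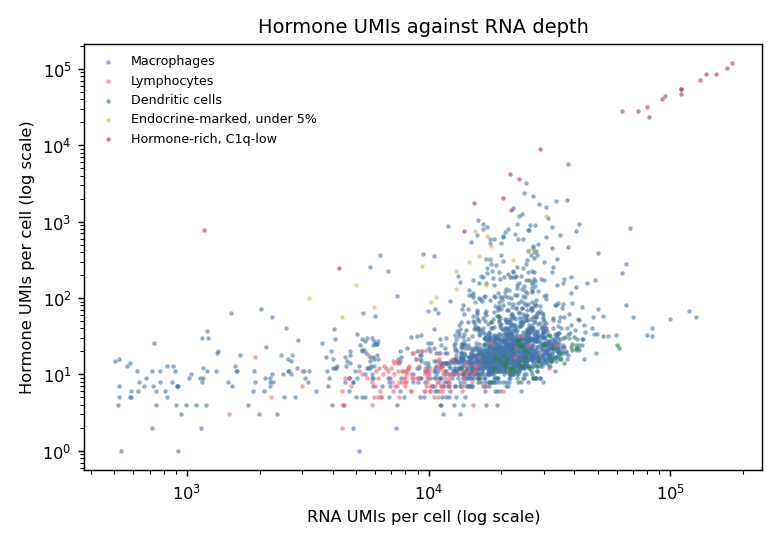
Each point is 1 cell, with its RNA UMIs on the horizontal axis and the UMIs of the 7 hormone genes on the vertical axis, both on log scales. Most immune cells lie in a flat band near the medians of 19 (macrophages), 10 (lymphocytes) and 17 (dendritic cells) hormone UMIs, macrophages rise above it at every depth, and the deepest hormone-rich cells form a separate arm at upper right.

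Ins2 was the most abundant member in every immune class. Its level was 1734 CPM in macrophages (1721 to 1748), 585 CPM in lymphocytes (546 to 626) and 448 CPM in dendritic cells (414 to 485). T-like, NK-like and B-like cells were at 583, 588 and 588 CPM, so the lymphocyte types differed by less than their counting intervals. The ratio of macrophages to lymphocytes was 2.96 (2.77 to 3.18) and that of dendritic cells to lymphocytes 0.766 (0.690 to 0.851). Ins1 followed the same order, at 813, 263 and 157 CPM, and Iapp at 199, 72.6 and 51.5 CPM. Dendritic cells were deeper than lymphocytes, and at like depth the order of these 2 classes was not steady. Ins2 stood at 779 CPM in 9 dendritic cells and 453 CPM in 10 lymphocytes of 15000 to 20000 UMIs. At 20000 to 30000 UMIs the values were 426 and 482 CPM, and at 30000 to 60000 UMIs 391 and 338 CPM. The ratio of macrophages to lymphocytes was 3.09 for Ins1 (2.80 to 3.43) and 2.74 for Iapp (2.26 to 3.35), so the intervals of the 3 beta-cell hormones overlapped. When every cell was thinned to 2000 UMIs, the expected share of cells with an Ins2 UMI was 71.9% in macrophages, 70.0% in lymphocytes and 58.2% in dendritic cells (65, 2 and 0 shallower cells left out); without thinning it was 99.8%, 100% and 100%. Over all depths, a share of Ins2-positive cells thus did not separate macrophages from lymphocytes, whereas the sum over cells did. Thinning does not undo the lower hormone share of deeper cells, and macrophages were the deeper class. Among cells of 5000 to 10000 UMIs, Ins2 stood at 2672 CPM in macrophages and 720 CPM in lymphocytes. At 10000 to 15000 UMIs it stood at 1178 and 496 CPM.

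Over the class sums, Gcg did not follow insulin. It stood at 64.9 CPM in macrophages (62.3 to 67.5) and 67.1 CPM in lymphocytes (54.4 to 81.8), a ratio of 0.967 (0.789 to 1.20), and thinned to 2000 UMIs its expected share of positive cells was 11.7% and 14.8%. These classes differ in depth. Among cells of 5000 to 10000 UMIs, Gcg stood at 80.5 CPM in macrophages and 110 CPM in lymphocytes, with overlapping intervals. At 10000 to 15000 UMIs it was 76.0 and 43.3 CPM, and at 15000 to 20000 UMIs 66.4 and 31.0 CPM. At 20000 to 30000 UMIs it was 61.4 and 7.30 CPM, and at 30000 to 60000 UMIs 48.8 and 46.0 CPM. The lymphocyte values from 15000 UMIs rest on 5 Gcg UMIs or fewer per range. Over all depths, dendritic cells stood above both classes, at 145 CPM (126 to 166). That excess came from 1 dendritic cell with 151 Gcg UMIs, and without it the class stood at 39.5 CPM (29.8 to 51.4), below lymphocytes. The same cell held 8 Pyy UMIs, 8 Ins2 UMIs, 34 Ptprc UMIs and 21 of the 25 Ttr UMIs of all dendritic cells. Ttr encodes transthyretin, an abundant transcript of alpha cells. The cell was chosen after its values were seen.

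The remaining hormones were rarer and uneven. Ppy stood at 104 CPM in macrophages, 20.7 CPM in lymphocytes and 16.2 CPM in dendritic cells, with a ratio of macrophages to lymphocytes of 5.03 (3.52 to 7.47). Pyy stood at 26.2, 6.22 and 8.46 CPM, with a ratio of 4.21 (2.21 to 9.23). Sst stood at 14.3 CPM in macrophages and 7.05 CPM in dendritic cells, and lymphocytes held 1 Sst UMI in all, so the ratio of macrophages to lymphocytes (20.7) had an interval of 3.69 to 818. For these 3 genes the class value was set by very few cells. Of the UMIs that macrophages held, 50% lay in 3 cells for Sst, in 2 for Ppy and in 2 for Pyy, against 57 cells for Ins2, 51 for Ins1, 65 for Iapp and 216 for Gcg.

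The granule genes were low in all immune classes. Chga stood at 24.5 CPM in macrophages, 14.5 CPM in lymphocytes and 9.17 CPM in dendritic cells, with a ratio of macrophages to lymphocytes of 1.69 (1.10 to 2.74). Pcsk2 stood at 18.5, 2.77 and 6.35 CPM, with a ratio of 6.70 (2.60 to 24.6) on 4 lymphocyte UMIs. Of the 675 Pcsk2 UMIs in macrophages, 106 lay in 1 cell and 104 in another, an unevenness that the counting interval does not cover. Chgb stood at 4.69, 1.38 and 2.12 CPM, and with 2 UMIs in lymphocytes its ratio of 3.39 had an interval of 0.925 to 28.2. In all, 9 of the 10 members were at least 1.5-fold higher in macrophages than in lymphocytes and 0 were lower, beside 19% of all genes measured that were higher and 49.1% that were lower. Without the 10% of macrophages highest in hormone share, 2 of 10 (Sst and Pcsk2) were at least 1.5-fold higher and 0 were lower, beside 19.1% and 49.6% of all genes. Lymphocytes were not cut in this way, so a fall of the hormone ratios was fixed in advance. Ins2 then had a ratio of 1.23 (1.15 to 1.32), Ppy of 1.09 (0.754 to 1.62) and Chga of 0.835 (0.539 to 1.36). Between dendritic cells and lymphocytes, 7 members held the 20 UMIs needed. Of these, 1 was at least 1.5-fold higher (Gcg, through the cell above) and 2 were lower (Ins1 and Chga), beside 18.5% and 42.1% of all genes. The ratio was 0.596 for Ins1 (0.502 to 0.705). For Chga it was 0.631, on 13 and 21 UMIs, with an interval of 0.290 to 1.32 that includes no change. These counts of members compare classes of different depth and were not repeated at like depth. Against dendritic cells, macrophages were at least 1.5-fold higher in 9 members and lower in 1 (Gcg), beside 20.2% and 27.8% of all genes. Of the 10 endocrine markers, 3 (Neurod1, Isl1 and Pax6, transcription factors of endocrine cells) were at 0 in lymphocytes, and the summed marker level ran from 0 to 523 CPM per lymphocyte and from 0 to 10870 CPM per macrophage; the part of whole endocrine RNA in these levels was not tested.

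The hormone-rich C1q-low cells were chosen by the 7 hormones, so their hormone levels are a description. Hormones made up 48.0% of the summed UMIs of the 23 cells, from 5.33% to 66.4% per cell. Ins2 stood at 292417 CPM, Ins1 at 132760 CPM and Iapp at 25145 CPM, with Gcg at 15356, Ppy at 6691, Pyy at 5958 and Sst at 1796 CPM. Chga, which the choice did not use, stood at 6257 CPM, Chgb at 875 CPM and Pcsk2 at 3584 CPM, and the endocrine-marked cells had 1528, 308 and 5001 CPM. All 10 members were at least 1.5-fold higher than in lymphocytes, beside 20.5% of all genes higher and 59.3% lower (36.2% and 32.3% over non-member UMIs). The 10 genes outside the members that led these cells against lymphocytes were Phactr1, Cntnap2, Meg3, Resp18, Cacnb2, Scg2, Ttr, Scg3, Gpr158 and Cacna2d1. Scg2 and Scg3 encode secretogranins and Cacnb2 and Cacna2d1 calcium channel subunits. Phactr1, with 2271 UMIs in hormone-rich cells and 0 in lymphocytes, was at least 627-fold higher against a floor of 3 counts over the lymphocytes. Cell number 22 of the 23 by hormone share differed from the rest: with 4242 UMIs it held C1q at 943 CPM, 7 Ptprc UMIs, 0 Pcsk2 UMIs and 2 of 10 endocrine markers.

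Of the 23 cells, 20 were led by insulin and amylin, 1 by glucagon and 2 by PP and PYY. The glucagon-led cell held 26765 Gcg UMIs among 73143, which was 89.9% of all Gcg UMIs in kept cells, beside 16 Ins2 and 1121 Pyy UMIs. The deeper of the PP-led cells (81432 UMIs) held 10727 Ppy, 9029 Pyy and 3138 Sst UMIs, which were 67.9%, 78.9% and 85.5% of all UMIs of those genes, with 16 Ins2 UMIs. The other PP-led cell was shallow, with 1177 UMIs, 267 genes and 597 Ppy UMIs. In the 20 insulin-led cells together there were 58 Gcg UMIs, 0 to 7 per cell, at 36.5 CPM (27.7 to 47.1), and 0 Sst UMIs, which allows up to 1.89 CPM at 3 counts over these cells. Of their 337 Ppy UMIs, 325 lay in 1 cell, which also held 4234 Iapp UMIs and had 12.4% Ins1 within insulin. Hormones filled much of the total in these cells, and over non-member UMIs Gcg stood at 73.6 CPM (55.9 to 95.2), so its order against the 67.1 CPM of lymphocytes (54.4 to 81.8) turned with the base. Since 1 cell gave most of each minor hormone, the mix of this class describes 23 cells.

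**Figure D3:**
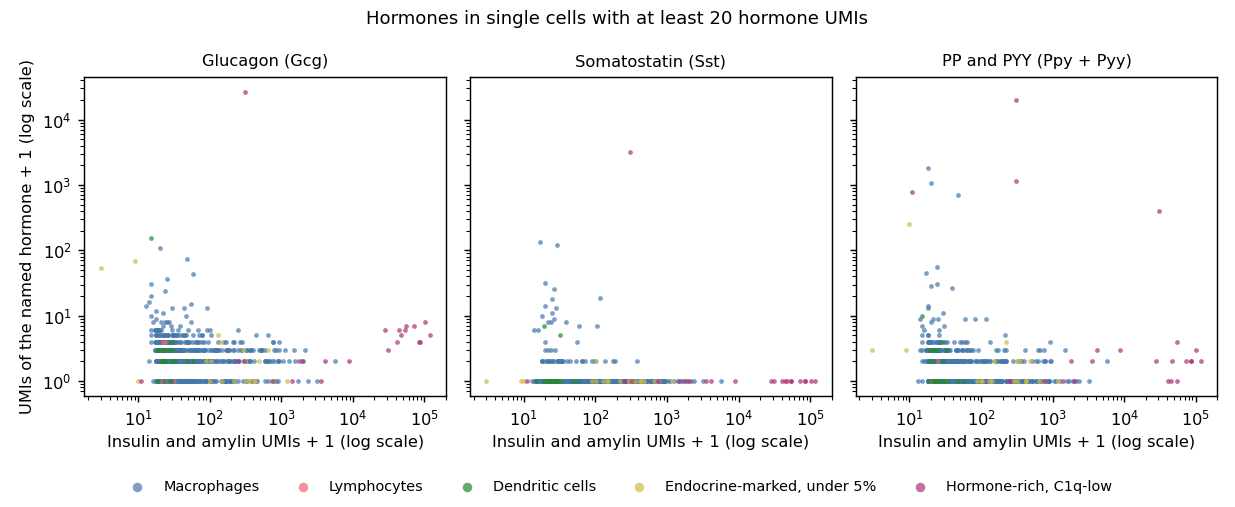
Each point is 1 cell with at least 20 hormone UMIs; the horizontal axes give the UMIs of Ins1, Ins2 and Iapp plus 1, the vertical axes those of Gcg, of Sst, or of Ppy and Pyy plus 1, all on log scales. The 20 insulin-led hormone-rich cells stay at or below 7 Gcg UMIs, and the few macrophages with many Ppy, Sst or Gcg UMIs have little insulin.

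The mix of hormones, each as a share of the 7-hormone UMIs and not scaled to gene length, was similar in lymphocytes and in macrophages of low load. Lymphocytes had 25.9% Ins1, 57.6% Ins2, 7.15% Iapp, 6.61% Gcg (5.39 to 8.00%), 2.04% Ppy, 0.613% Pyy and 0.0681% Sst. Macrophages of percentiles 0 to 25 of hormone share had 23.4% Ins1, 59.1% Ins2, 7.52% Iapp, 7.02% Gcg (6.39 to 7.69%) and 1.98% Ppy. Dendritic cells without the Gcg-rich cell had 21.7% Ins1, 62.3% Ins2, 6.94% Iapp and 5.46% Gcg (4.14 to 7.04%), and 17.4% Gcg with it. The Gcg intervals of these 3 overlapped. T-like, NK-like and B-like cells had 6.21%, 8.17% and 6.44% Gcg, again with overlapping intervals.

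**Figure D4:**
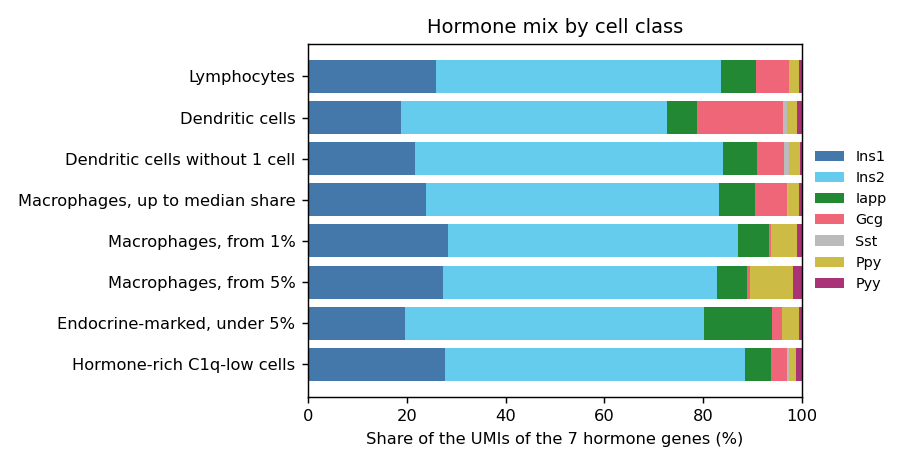
Stacked bars give each hormone as a percent of the UMIs of the 7 hormone genes in a class of cells. Gcg makes up 5.46 to 6.61% in lymphocytes, macrophages up to the median hormone share and dendritic cells without 1 cell, and 0.499% in macrophages with 1% or more hormone UMIs, where Ppy makes up 5.09%. The macrophage ranges were chosen by the hormone sum, which largely fixed the lower Gcg share. Of the Ppy UMIs in the 1% range, 2981 lay in 3 PP-led cells and 29 in 105 insulin-led cells.

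Macrophages of high load had another mix. With the macrophages ordered by hormone share, Gcg made up 7.02% of hormone UMIs between percentiles 0 and 25, 5.87% between 25 and 50, 5.16% between 50 and 75, 3.26% between 75 and 90, 1.30% between 90 and 95, 0.320% between 95 and 99 and 0.427% in the top percentile. The level of Ins2 went from 329 CPM below percentile 25 to 14427 CPM between percentiles 95 and 99 and 40591 CPM above, while Gcg went from 39.1 to 73.4 and 310.0 CPM, with 113 CPM between percentiles 90 and 95. Ppy followed no steady course, with 17.5 CPM between percentiles 95 and 99 but 514 CPM in the range before it and 5890 CPM in the range after it, the 2 ranges that hold the 3 richest PP-led macrophages. Counted per cell, the mean went from 8.06 below percentile 25 to 229 Ins2 UMIs between percentiles 95 and 99, and from 0.958 to 1.17 Gcg UMIs. In the top percentile, 1 cell held 108 of the 126 Gcg UMIs. The order rests on the sum in which insulin dominates. It largely fixed both the rise of Ins2 and the fall of the Gcg share of that sum, so neither is a finding. The course of the levels of the other hormones along the order is a description of the same cells. Among the 105 insulin-led macrophages with 1% or more, Gcg stood at 64.7 CPM (53.3 to 78.0), 0 to 4 UMIs per cell, beside 64.9 CPM in all macrophages, and Ppy stood at 16.9 CPM against 20.7 CPM in lymphocytes. Ins1 as a share of Ins1 and Ins2 was 28.4% (27.2 to 29.7%) below percentile 25 and 32.7% (32.3 to 33.1%) at 1% or more; it was 31.4% in hormone-rich cells of at least 50000 UMIs, between 24.4 and 25.6% by its interval in those under 50000 and 31.0% (28.4 to 33.7%) in lymphocytes.

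**Figure D5:**
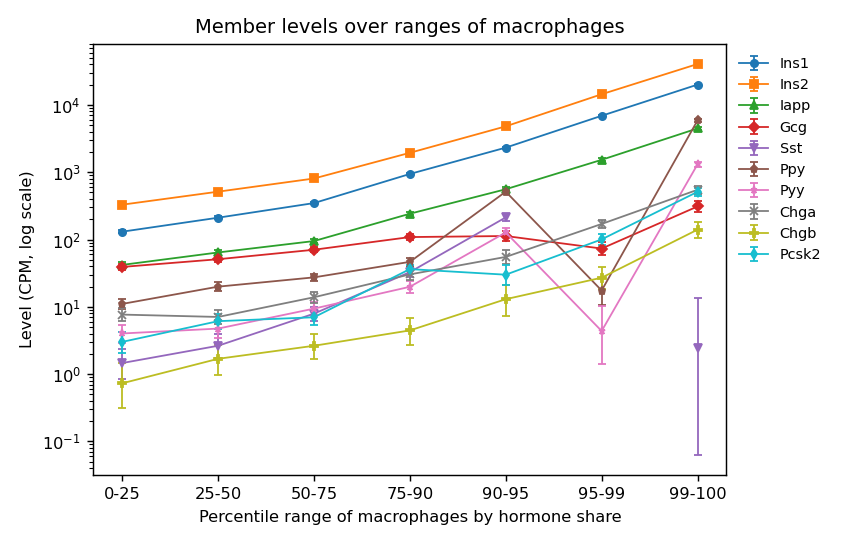
Points give the level of each member in CPM on a log scale over ranges of macrophages ordered by hormone share, with 95% counting intervals as bars; the order itself was made from the 7 hormones. Ins1, Ins2 and Iapp rise together, Gcg stays between 39.1 and 113 CPM up to percentile 99, Ppy, Pyy and Sst jump in ranges that hold a few cells rich in them, and Sst, with 0 UMIs between percentiles 95 and 99, has no point there.

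Most single macrophages were led by insulin and amylin. Of the 867 macrophages with at least 20 hormone UMIs, 854 (98.5%) were led by insulin and amylin, 5 by glucagon, 3 by somatostatin and 5 by PP and PYY. The spread of the Gcg share between these cells was 13.1 times the binomial variance. That of Ins1 within insulin was 1.53 times, over the 682 macrophages with at least 20 insulin UMIs, so the 2 values cover different sets of cells. Of the 15 macrophages with 5% or more, 13 were insulin-led, with 0 to 2 Gcg UMIs and 0 Sst UMIs each. The highest held 1801 Ins1, 3358 Ins2 and 554 Iapp UMIs among 37629, with 1 Gcg and 1 Ppy UMI, C1q at 7414 CPM and 20 Ptprc UMIs. It also held 3 Epcam, 66 Chga and 42 Scg2 UMIs, 8 of 10 endocrine markers and 8 UMIs of islet transcription factors. The other 2 were PP-led. The first held 1423 Ppy and 420 Pyy UMIs with 11 Ins2 and 3 Gcg UMIs, at a C1q level of 10069 CPM and 15 Ptprc UMIs. The second held 968 Ppy, 109 Pyy and 108 Gcg UMIs with 14 Ins2 UMIs, at a C1q level of 5912 CPM and 10 Ptprc UMIs. Each of these 2 held 6 of 10 endocrine markers and 0 Epcam UMIs. Another PP-led macrophage, at 1.21% hormone UMIs, held 590 Ppy, 113 Pyy and 73 Gcg UMIs among 67848, with 25 Ins2 UMIs. Their 11 to 25 Ins2 UMIs stood beside means of 8.06 to 15.7 per cell in the ranges of macrophages below percentile 75. Around the 5% threshold, the nearest macrophages above held 5.08% and 5.13% and those below 4.90%, 4.71% and 4.40%.

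Somatostatin-led macrophages were of lower load. The first had 120 Sst UMIs among 158 hormone UMIs and the next 134 among 196, with 26 Pyy and 18 Ppy UMIs in the latter. The last had 31 Sst UMIs among 79. The glucagon-led macrophage with most Gcg held 35 Gcg UMIs among 60 hormone UMIs, and the 5 cells ran from 13 to 35 Gcg UMIs. No macrophage with 1% or more was led by glucagon or somatostatin. Macrophage number 13 by share, with 5.16% hormone UMIs, held 104 Pcsk2 UMIs, 9 of 10 endocrine markers and 17 UMIs of islet transcription factors. It had 4.74% mitochondrial UMIs and C1q at 2255 CPM, near the threshold. Whether its barcode, or that of any other single macrophage described here, held more than 1 cell was not tested.

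Across all 1792 macrophages, on a log scale of UMIs per 10000 non-member UMIs, Pearson's r between members was 0.86 for Ins1 and Ins2, 0.71 for Ins2 and Iapp, 0.53 for Ppy and Pyy and 0.42 for Sst and Pyy. It was 0.14 for Ins2 and Gcg, 0.0051 for Ins2 and Ppy, and -0.038 for Ins2 and Sst. These cells come from 1 library and differ in depth, from 504 to 127703 UMIs. The counts of all but the insulin genes are sparse, so the low values are no finding. The non-member genes most like the hormone sum over the same cells were Scg2 (0.479), then mt-Co3 (0.166), mt-Cytb (0.164), Cmss1 (0.133), mt-Nd4 (0.126), C1qa (0.120), mt-Co1 (0.115) and mt-Co2 (0.114), among 6354 genes with at least 500 UMIs. Chga (0.473) and Pcsk2 (0.422), members that the sum did not include, stood beside Scg2, above every other gene of those 6354. Genes with fewer UMIs, Chgb among them, were not ranked.

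Granule genes and other endocrine genes were higher in the 10% of macrophages highest in hormone share than in the rest. Chga stood at 175 against 12.1 CPM (ratio 14.4, 12.6 to 16.5), Pcsk2 at 129 against 9.36 CPM (13.8, 11.8 to 16.1) and Chgb at 37.4 against 1.99 CPM (18.8, 13.7 to 25.9). For Pcsk2, 1 cell held 104 of the 360 UMIs of the highest 10%, and 1 other cell held 106 of the 315 UMIs of the rest. With the 7 hormones, which chose the cells, all 10 members were at least 1.5-fold higher, beside 9.89% of all genes higher and 11.7% lower (10.4% and 10.8% with the members left out of the totals). Of 16 secretory granule genes, 14 were measured and all 14 were higher, with a median log2 ratio of 3.22 beside -0.02 over all genes. Resp18, an endocrine granule protein, stood at 42.7 against 2.05 CPM, Scg2 at 130 against 9.15 CPM, and Scg5, the partner protein of Pcsk2, at 23.0 against 1.46 CPM. Of 15 islet transcription factors, 6 were measured and 5 were higher. Of 13 beta-cell genes, 9 were measured and all 9 were higher, among them G6pc2, a beta-cell glucose phosphatase subunit, at 28.7 against 1.01 CPM, and Slc30a8, the granule zinc transporter, at 20.8 against 1.69 CPM. Ero1lb, an oxidoreductase of insulin folding, stood at 72.6 against 37.5 CPM and so was also present in the other macrophages. Of 9 alpha-cell genes, 5 were measured and 4 were higher, among them Ttr at 23.3 against 3.12 CPM. The delta-cell list had 1 of 2 measured genes higher, and of 20 acinar genes the 1 measured passed in neither direction.

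Granule genes were then set against the hormone RNA. They were slightly less frequent in macrophages with 1% or more than in deep hormone-rich cells, and more frequent in shallow hormone-rich cells. Hormone UMIs are the base of these values and also chose the macrophage ranges and the hormone-rich cells. The differences are thus a description that the choice partly fixed. Per 1000 hormone UMIs, the granule list had 17.0 UMIs (15.9 to 18.0) in those macrophages and 19.98 (19.7 to 20.3) in hormone-rich cells of at least 50000 UMIs. It had 72.1 in hormone-rich cells under 50000 UMIs and 453 in endocrine-marked cells, which were chosen by a marker list that holds Chga, Chgb, Pcsk2 and other granule genes and by few hormone UMIs, so their values here and below are a description that the choice fixed. The transcription factor list had 1.61 (1.30 to 1.97), 1.87 (1.78 to 1.97), 8.24 and 43.4. Macrophages at or below the median hormone share had 53.8 granule-list UMIs and 10.4 transcription factor UMIs per 1000 hormone UMIs, so RNA of these lists was also read where hormone RNA was low. Pcsk2 had 5.69 (5.09 to 6.33, with 104 of its 336 UMIs in 1 cell), 6.63 (6.46 to 6.81), 36.2 and 227. Chga was lower in the macrophages than in any of them, at 7.36 (6.69 to 8.09) against 12.8, 22.2 and 69.5. Ttr had 1.02 in the macrophages and 3.07 in the deep cells, of which 1 was the glucagon-led cell.

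Mitochondrial UMIs differed between these classes. The 9 hormone-rich cells under 50000 UMIs had a median of 6.60% mitochondrial UMIs and the 20 endocrine-marked cells 6.80%, against 1.45% in the 14 deep hormone-rich cells and 1.39% in macrophages. Of the 9, the PP-led cell of 1177 UMIs had 0% and cell number 22 had 0.684%. Over all UMIs, Pcsk2 stood at 5641 CPM in the hormone-rich cells under 50000 UMIs and 3389 CPM in the deep ones. Over non-member UMIs it stood at 6759 CPM (6312 to 7228) and 7085 CPM (6897 to 7276), with overlapping intervals, whereas Ins2 was lower in the shallow cells on both bases (106657 against 310000 CPM over all UMIs). Against hormone-rich cells as a whole, 9 of 10 members were at least 1.5-fold lower in endocrine-marked cells and Pcsk2 had a ratio of 1.40 (1.32 to 1.48) over all UMIs but 0.732 (0.691 to 0.774) over non-member UMIs, beside 54.6% of all genes higher and 22.9% lower (27.7% and 40% with the members left out of the totals); the hormone threshold used 7 of these members and the marker list the other 3. Of the endocrine-marked cells, 17 were insulin-led, 2 glucagon-led and 1 PP-led. The part of cell damage in these values was not tested.

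Hormone load was compared with the antibodies on macrophages, whose tags are, 5′ to 3′ and in lower case,
CD9: tagcagtcactccta
CD206: tcaactcggtgttgc
They are shown because the antibody UMIs were counted from them. Macrophages were divided in 3 ranges by antibody UMIs within each depth range, 592 cells in the highest and in the lowest. The median was 2949 against 48 CD9 UMIs per cell and 28 against 2 CD206 UMIs, so the CD206 ranges rest on few counts. Hormones made up 0.252% of UMIs in the highest and 0.370% in the lowest CD9 range, and 0.220% and 0.355% in the highest and lowest CD206 range. The median cell did not follow: it was at 0.102% and 0.107% for CD9 and at 0.102% and 0.107% for CD206. Without the 10% of macrophages highest in hormone share, the values were 0.121% and 0.124% for CD9 and 0.118% and 0.126% for CD206, so the difference between ranges was smaller without the macrophages of highest load. Of cells with 1% or more there were 30 in the highest and 43 in the lowest CD9 range, and 29 and 37 for CD206.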

How the data were processed

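One mRNA and 1 antibody library of the same suspension were used. The deposited values are UMI counts per gene or tag and barcode, and per the file headers the authors used Cell Ranger 8.0.1; the submitters' processing notes name mm10, and no source used here gives the authors' barcode filter. Barcodes needed 200 genes or more and no more than 10% mitochondrial UMIs (2215 of 2237 passed). Scrublet (scanpy 1.11.5) marked 7 cells, too few to be trusted, so the 1.79% with the highest scores (40 cells, 0 of them with 1% or more hormone UMIs) were removed. Members, classes and gene lists were chosen with earlier results of these data known.

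UMIs were summed over a class and scaled to its total (CPM), with exact Poisson intervals; shares have exact Clopper-Pearson intervals and ratios exact conditional binomial ones. With 1 sample there was no test; a gene counted as higher or lower at 1.5-fold with at least 20 UMIs in both sums together, a sum at 0 being set to 3 counts. Named were all members, at most 4 genes per list by the interval bound nearest to 1 (at least 50 UMIs), the 8 genes most correlated with the hormone sum and the 10 leading the hormone-rich cells. Thinned shares are hypergeometric expectations. Where 2 gene IDs shared a symbol (40 symbols), the ID with more UMIs was used. Ratios were checked on simulated sums with counting error only. The check had no differences between cells, so it does not cover hormone UMIs that lie in few cells. Cells of 5000 to 15000 UMIs, dendritic cells without the cell with most Gcg, antibody ranges and member ratios without the highest 10% of macrophages, and member ratios over non-member UMIs were alternatives added after seeing the data. Python 3.11.15, numpy 2.4.6, scipy 1.17.1, pandas 2.3.3 and matplotlib 3.10.9 were used. Total depth was 44140516 gene UMIs, with a median of 19352 per barcode.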

Additional observations from a re-analysis of the deposited data

Results flagged for a closer look

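Hormone RNA was also present in barcodes that entered no comparison, above the limit that a count of 0 allows. In the 22 barcodes outside the cell filters, hormones made up 3.74% of RNA UMIs (3.63 to 3.85%); 6 of them held 5% or more and 11 held at least 4 endocrine markers. In the 47 cells between the C1q thresholds they made up 0.159% (0.148 to 0.171%), with 13.5% of hormone UMIs from Gcg, and 1 cell held 198 of the 201 Pcsk2 UMIs.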

How the results depend on the processing

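The hormone share of macrophages was 0.290% with no doublet removal, 0.309% with macrophages from C1q of 4000 CPM, 0.3003% with hormone UMIs over all 10 members, 0.122% without the 10% of macrophages highest in hormone share and 0.242% among cells of 5000 to 15000 UMIs, a range chosen after seeing the data. In that range lymphocytes stood at 0.108%. The ratio of macrophages to lymphocytes was 2.24 in that range and 1.21 without those 10%. The hormone share of hormone-rich cells was 49.0% with a threshold of 10%, 48.7% over all 10 members and 94.3% of the UMIs left when members and acinar genes were taken out of the total. The other 53 values of these shares, ratios and counts of members stayed within their limits, and among single members and lists 99 moved, 570 did not and 2 reversed. Many of the unmoved values could not move, because a setting often left a class as it was. The hormone-rich threshold of 10%, for example, changed no macrophage, lymphocyte or dendritic cell value. These counts are thus no measure of stability. Without the highest 10% of macrophages, 9 of 10 member levels in macrophages fell by more than 1.5 times, all but Gcg, the count of members higher than in lymphocytes went from 9 to 2, and the ratio of Chga reversed from 1.69 to 0.835. The cut was made by hormone share in macrophages alone, so a fall of their hormone share was fixed in advance. Over non-member UMIs, the ratio of Pcsk2 in endocrine-marked to hormone-rich cells reversed from 1.40 to 0.732. Depth limits Sst, Chgb and Pcsk2 in lymphocytes and dendritic cells, with at most 10 UMIs each. No paired analysis was possible because there was 1 sample of cells.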
